A study of Mus musculus with 136 samples.

Results

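Wild-type mouse bone marrow-derived macrophages pretreated with an ERK inhibitor were compared with those given its vehicle, DMSO, over the first hour of lipid A. Nascent RNA of the immediate-early genes Egr1, Fos and Ier2 and of the ERK feedback genes Dusp5 and Phlda1 was lower in the inhibitor libraries, as was that of Plaur and Plau, which encode the urokinase receptor and urokinase. Nascent RNA of Ifnb1, of the interferon-stimulated genes Ifit1 and Gbp5 and of C3 was higher. Of 3409 genes with measurable RNA, 18 were at least 2-fold lower and 13 at least 2-fold higher at 2 consecutive stimulated times. Once each gene's 0 min difference was subtracted, 9 of the 18 and 6 of the 13 still passed, and Fos, Plaur, Plau and Ifit1 did not. Egr1 was the gene with the largest difference: its RNA reached 51.6 RPKM at 15 min with DMSO and 1.97 RPKM with the inhibitor.

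The 8 libraries, of 136 in the series, are 1 library each of DMSO and ERKi, the label's word for the ERK inhibitor, at 0, 15, 30 and 60 min of lipid A. All 8 are labelled wild type, the strain is written C57/B16, and marrow cells were grown for 6 days in M-CSF. The inhibitor or DMSO was given as a pretreatment. The labels give neither the compound, its dose and the length of pretreatment nor the age and number of mice, so the inhibitor's action on ERK itself was not measured here. Values are reads per kilobase of gene span per 1e6 reads (RPKM) in RNA purified from chromatin, most of which is still attached to RNA polymerase. With 1 library per condition there is no replicate check, and no test was made of inhibitor against DMSO.

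Lipid A is the part of bacterial endotoxin that activates the receptor TLR4. TLR4 signals through NF-kB, through interferon regulatory factors and through MAP kinase cascades; in macrophages the kinase Tpl2, encoded by Map3k8, links the receptor to MEK and then to ERK. Active ERK phosphorylates the ternary complex factors, which bind beside serum response factor at the CArG box and switch on immediate-early genes, and it also induces phosphatases and adaptors that limit ERK itself. Tpl2 and ERK are known to restrain interferon beta and to favour IL-10 in macrophages.

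The members are the genes with a difference of at least 2-fold in the same direction at 15 and 30 min or at 30 and 60 min, where the difference is log2(RPKM + 0.5) with the inhibitor minus that with DMSO at the same time. A gene was considered if it reached 1 RPKM in at least 1 of the 8 libraries, so a gene near 1 RPKM could pass through the single library in which it was high. The 18 lower genes are 0.528% of the 3409, and the 13 higher genes are 0.381%. With each library centred on its median gene the numbers are 15 and 18. Of the lower genes 8 passed at 15 and 30 min and 12 at 30 and 60 min, with 2, Egr1 and Phlda1, counted in both because they passed at all 3 times. Of the higher genes 3 passed at the early pair of times and 11 at the late pair, with Gbp5 in both. After each gene's 0 min difference was subtracted, 9 of the 18 and 6 of the 13 still passed; Fos, Plau, Plaur, Vim and 5 microRNA genes among the lower ones and Ifit1, Ube2l6, Mxd1, Hnrnpll, Ppp1r15a and 2 microRNA genes among the higher ones did not. Just inside the threshold for lower genes were Btg1 and Mir532, with smaller differences of the pair of 1.01 and 1.03, and just outside it Fam129b and Mir15a, both 0.99. For higher genes Ppp1r15a (1.00) and Mir26b (1.03) were inside and Mir3112 and Rsad2, both 0.99, outside.

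Depth was 21.8 to 33.04 M (1e6) reads per library, and the DMSO and ERKi libraries overlapped in depth at the stimulated times. The median difference over all genes was 0.07 at 0 min, -0.01 at 15 min, -0.00 at 30 min and -0.05 at 60 min. The libraries are of whole cultures, so fewer responding cells and less RNA per cell cannot be told apart. All 7 macrophage markers in the table reached 1 RPKM, with summed levels of 52.4 to 164 RPKM with DMSO and 50.8 to 164 RPKM with the inhibitor. No marker of neutrophils, dendritic cells, lymphocytes, mast cells, erythroid or stromal cells reached 1 RPKM, and no such list summed to more than 0.676 RPKM in a library. The nuclear-retained RNA Neat1 was at 242 RPKM with DMSO and 495 RPKM with the inhibitor at 0 min, and its part in other differences was not tested.

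The number of genes apart by 2-fold or more grew with time. At 0 min, 24 genes (0.704%) were lower and 16 (0.469%) higher. At 15 min, 48 genes (1.41%) were lower and 23 (0.675%) higher. At 30 min, 58 (1.7%) were lower and 33 (0.968%) higher, and at 60 min 117 (3.43%) were lower and 100 (2.93%) higher. Centred on the median gene, the 60 min numbers are 89 and 124, so which direction had more genes at 60 min depends on the scaling. The spread of the differences over genes grew as well, from a standard deviation of 0.27 at 0 min to 0.49 at 60 min. As a measure of replicate error, the standard deviation between wild-type replicates of the other chromatin series had a median of 0.29 over genes at 0.5 h and 0.31 at 1 h. For each gene that standard deviation was multiplied by the square root of 2, since a difference between single libraries carries the error of both, and set beside its difference here. Because the members were chosen by their difference, a member that exceeds this spread gains no support from it. Mirlet7d and Btg1 among the lower genes and Gbp5, Ifit1 and Mir5132 among the higher ones were within it at 30 min. At 60 min 11 of the 18 lower and 10 of the 13 higher genes were beyond it. Of the genes that passed at 30 and 60 min, Plau (-1.20 beside a spread of 1.28), Btg1 (-1.01 beside 1.08) and Ppp1r15a (1.00 beside 1.15) were within it at 60 min.

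**Figure D1:**
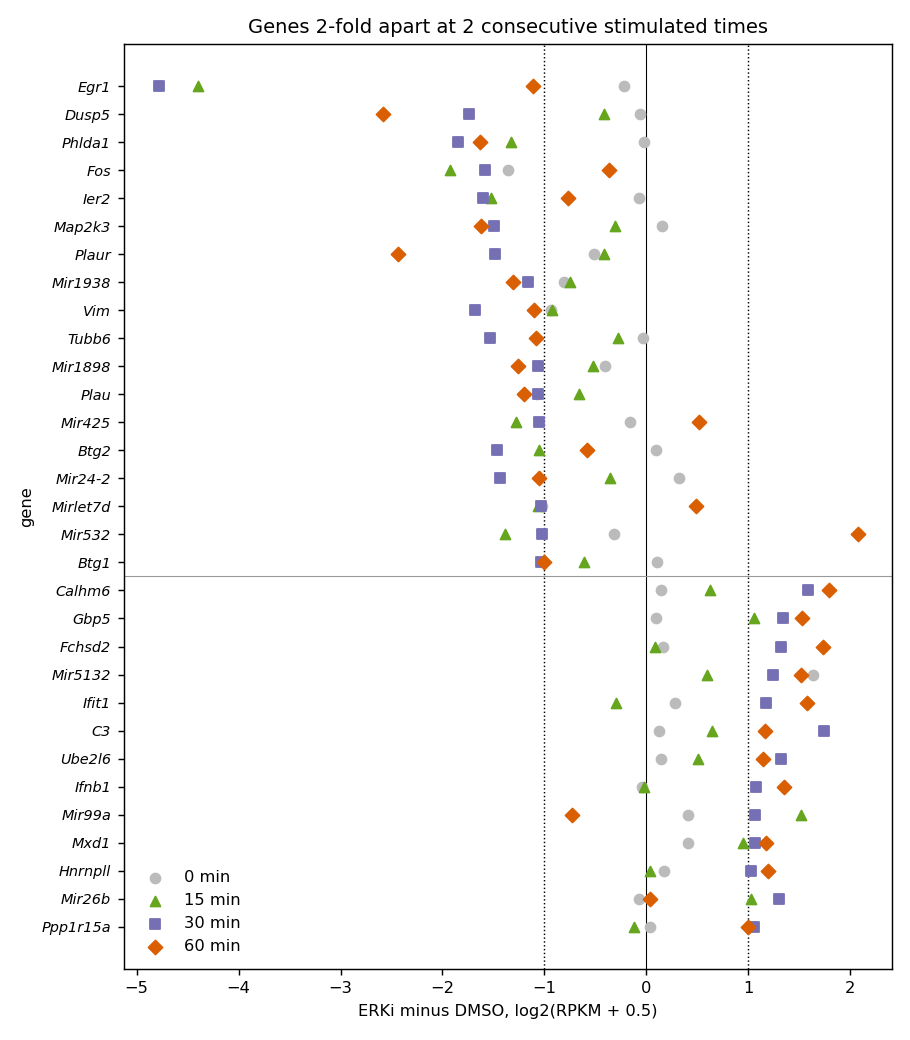
Difference between inhibitor and DMSO on the log2(RPKM + 0.5) scale (x axis) for the 31 genes that passed at 2 consecutive stimulated times, 1 point per time, 1 library per condition; dotted lines mark 2-fold. Egr1 stands at -4.40 and -4.78 at 15 and 30 min, and most genes lie near 0 at 0 min.

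Promoter sequences of the members whose letters bear on the groups are shown first: Dusp5, which holds CArG boxes, Plaur, which holds an AP-1 motif, and Ifit1, Gbp5 and Calhm6, which hold the interferon-stimulated response element (ISRE). The sequences are from RefSeq, build GRCm38.p6, 5′ to 3′ on the gene's strand, from 250 bases before the annotated start to 50 bases after it, with the motif in capitals. Of the members, 7 of the 18 lower and 9 of the 13 higher genes had an entry in the RefSeq promoter table; those over 300 bases without one were Egr1, Phlda1, Ier2, Plau, Tubb6 and Hnrnpll.
Dusp5, chr19:53528895-53529194, plus strand: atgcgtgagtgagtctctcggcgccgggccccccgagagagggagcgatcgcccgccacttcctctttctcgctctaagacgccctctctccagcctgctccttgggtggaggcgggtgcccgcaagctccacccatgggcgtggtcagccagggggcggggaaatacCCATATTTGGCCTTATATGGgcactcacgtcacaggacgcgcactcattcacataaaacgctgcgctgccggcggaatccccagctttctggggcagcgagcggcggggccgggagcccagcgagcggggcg
Plaur, chr7:24462233-24462532, plus strand: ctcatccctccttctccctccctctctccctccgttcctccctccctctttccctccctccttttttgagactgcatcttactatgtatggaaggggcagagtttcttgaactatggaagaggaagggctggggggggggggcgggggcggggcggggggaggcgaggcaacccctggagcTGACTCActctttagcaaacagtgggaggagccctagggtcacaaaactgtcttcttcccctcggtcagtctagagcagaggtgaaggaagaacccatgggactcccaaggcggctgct
Ifit1, chr19:34640639-34640938, plus strand: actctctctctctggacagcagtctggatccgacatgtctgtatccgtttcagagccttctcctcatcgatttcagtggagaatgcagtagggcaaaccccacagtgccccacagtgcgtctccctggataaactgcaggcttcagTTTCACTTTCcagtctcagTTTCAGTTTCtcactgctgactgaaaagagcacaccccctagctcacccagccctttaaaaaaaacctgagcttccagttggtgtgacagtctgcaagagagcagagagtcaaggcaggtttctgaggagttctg
Gbp5, chr3:142496684-142496983, plus strand: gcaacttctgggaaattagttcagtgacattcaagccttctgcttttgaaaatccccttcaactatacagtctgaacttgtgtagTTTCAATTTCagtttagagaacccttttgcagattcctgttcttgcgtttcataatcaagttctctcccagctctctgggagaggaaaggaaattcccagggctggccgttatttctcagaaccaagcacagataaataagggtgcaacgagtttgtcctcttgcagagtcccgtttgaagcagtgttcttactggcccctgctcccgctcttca
Calhm6, chr10:34127923-34128222, minus strand: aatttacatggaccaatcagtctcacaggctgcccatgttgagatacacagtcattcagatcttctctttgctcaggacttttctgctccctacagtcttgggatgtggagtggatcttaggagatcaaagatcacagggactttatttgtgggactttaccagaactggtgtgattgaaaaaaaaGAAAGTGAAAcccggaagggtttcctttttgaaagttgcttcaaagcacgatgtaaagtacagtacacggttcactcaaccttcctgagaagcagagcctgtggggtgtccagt

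The CArG box, searched as CC followed by 6 A or T and then GG, was in 1 of the 7 lower promoters, that of Dusp5, against 1.81% of all 27025 genes with a promoter of this length and 1.65% of the 2363 that were also measurable here. The second share of each pair below is over those 2363 genes, from which the members come. Dusp5 holds CCATATTTGG and CCTTATATGG end to end, starting at -82 and -72 from the annotated start. The AP-1 motif TGANTCA was in 1 of 7 (Plaur, at -69; 8.97% and 5.16%), the ETS core CCGGAA in 2 of 7 (Map2k3 and Vim; 16.7% and 33.5%) and the CRE TGACGTCA in 1 of 7 (Btg2; 2.03% and 3.81%). The ISRE (GAAA, any 2 bases, GAAA) was in 4 of the 9 higher promoters (Calhm6, Gbp5, Ifit1 and Ppp1r15a) and in 0 of the 7 lower ones, against 3.99% and 4.15%. Ifit1 holds 2 copies, starting at -104 and -85, read on the strand opposite to the gene. The higher promoters held 0 CArG boxes, 1 ETS core (Calhm6), 0 AP-1 motifs and 1 CRE (Ppp1r15a). The loose NF-kB motif (GGG, any 5 bases, CC) was in 7 of 7 lower and 6 of 9 higher promoters, against 53.5% and 70.3%, so its count in the higher promoters is near that of measurable genes. Motifs were searched on both strands, the ISRE was added to the search after the values were seen, and each match is a description of letters only. Motifs outside the 300 bases searched, and those of members without an entry, were not counted.

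Egr1, Fos, Ier2, Btg2 and Btg1 had their highest value at 15 min in both arms. Egr1 encodes a zinc finger transcription factor and lies on chromosome 18, 35020861 to 35024610 in mm9. Its RNA with DMSO was 0.111, 51.6, 21.96 and 0.649 RPKM at 0, 15, 30 and 60 min, and with the inhibitor 0.0242, 1.97, 0.315 and 0.0312 RPKM. The peak at 15 min was present in both arms, and at every stimulated time the inhibitor library was the lower of the pair. The differences were -0.22, -4.40, -4.78 and -1.11, and they rest on 4210 reads against 182 at 15 min and 1805 against 27 at 30 min. The RPKM ratio at 30 min was 0.0144 (95% exact binomial interval of the reads 0.00944 to 0.0210, counting error only).

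Fos encodes a subunit of the AP-1 transcription factor (chromosome 12, 86814840 to 86818224). Its RNA with DMSO was 3.20, 49.5, 9.83 and 0.874 RPKM, and with the inhibitor 0.948, 12.6, 2.94 and 0.564 RPKM. Fos was lower in the inhibitor library at every time, 0 min included: the differences were -1.35, -1.93, -1.59 and -0.37. Relative to its 0 min difference, Fos did not pass 2-fold. Both arms had their highest value at 15 min.

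Ier2, an immediate-early gene encoding a nuclear protein, had 1.42, 70.7, 22.3 and 4.13 RPKM with DMSO and 1.33, 24.3, 7.02 and 2.23 RPKM with the inhibitor. The arms were alike at 0 min (difference -0.07) and apart at 15 min (-1.52) and 30 min (-1.60). Btg2, which encodes an antiproliferative protein that promotes mRNA deadenylation, had 1.81, 45.2, 18.6 and 1.95 RPKM with DMSO and 1.97, 21.5, 6.42 and 1.13 RPKM with the inhibitor. Its differences were 0.10, -1.06, -1.46 and -0.58. Its relative Btg1 stood just inside the threshold, with 2.62, 11.7, 9.86 and 6.68 RPKM against 2.85, 7.51, 4.55 and 3.08 RPKM. In Ier2, Btg2 and Btg1 the peak at 15 min was kept and was lower with the inhibitor.

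The list of immediate-early genes had 18 measurable members of 34, and 4 of them (Egr1, Fos, Ier2 and Btg2) passed as lower and 0 as higher. Its median difference was -0.08, -0.64, -0.39 and -0.36 at the 4 times, beside medians over all genes of 0.07, -0.01, -0.00 and -0.05. At 15 min 16 of the 18 were below 0. Rhob (20.4 against 7.45 RPKM at 15 min) was past 2-fold at that time only, and Junb (72.0 against 41.9 RPKM) and Jun (59.9 against 30.2 RPKM) were short of it. Zfp36, which encodes tristetraprolin, was at 69.3 and 69.2 RPKM at 15 min and 66.1 and 62.9 RPKM at 30 min. Members of the list thus ranged from a difference of -4.40 in Egr1 to 0.81 in Gadd45b at 15 min.

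**Figure D2:**
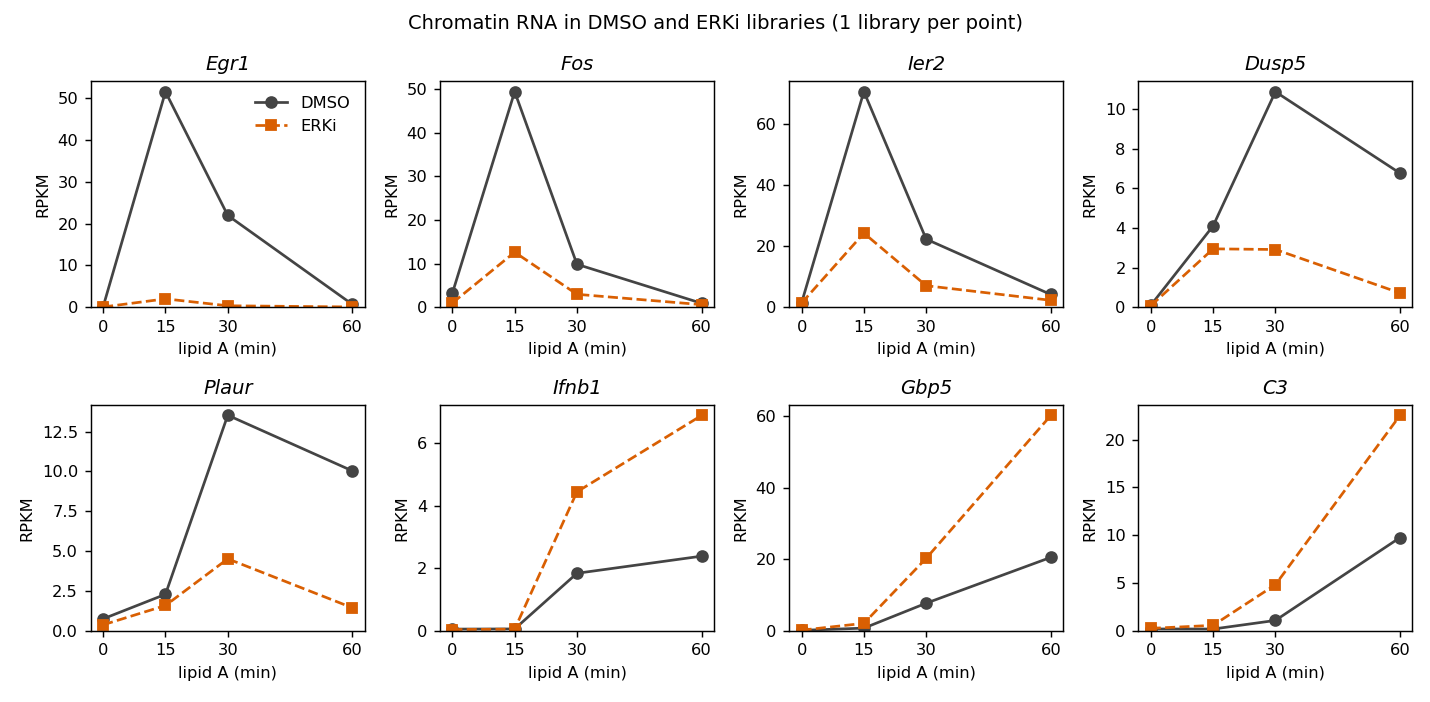
RPKM in chromatin RNA (y axis, linear, from 0, own scale per gene) against minutes of lipid A (x axis) for 8 members; circles are DMSO and squares the inhibitor, 1 library per point. Egr1, Fos and Ier2 peak at 15 min at 51.6, 49.5 and 70.7 RPKM with DMSO, whereas the inhibitor curve of Ifnb1, Gbp5 and C3 lies above that of DMSO at 30 and 60 min.

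Of the ERK feedback genes, Dusp5 and Phlda1 passed the rule, the first at the late pair of times and the other from 15 min on. Dusp5 encodes a nuclear phosphatase that acts on ERK (chromosome 19, 53603808 to 53615812). Its RNA with DMSO was 0.0921, 4.11, 10.9 and 6.77 RPKM and with the inhibitor 0.0693, 2.95, 2.91 and 0.713 RPKM. Both arms were above their 0 min value at 15 min, and the level at 30 min was above that at 15 min with DMSO but not with the inhibitor. The differences were -0.06, -0.42, -1.74 and -2.58, the last from 2171 reads against 220. Phlda1, a pleckstrin homology-like gene induced by ERK signalling, had 0.0353, 3.46, 3.71 and 1.51 RPKM with DMSO and 0.0256, 1.08, 0.667 and 0.148 RPKM with the inhibitor. It was lower at all 3 stimulated times (-1.32, -1.85 and -1.63) and at the value of 2 reads in both arms at 0 min.

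Of the 16 genes listed as ERK feedback and output genes, 12 were in the table and 5 were measurable. All 5 were below 0 at each of the 3 stimulated times. The median went from -0.37 at 0 min through -0.48 and -0.66 to -1.39 at 60 min. At 0 min all 5 were below 0 as well, but Dusp5 (-0.06) and Phlda1 (-0.03) had equal reads in both arms, 27 and 2. The sign of these genes at 0 min thus rests on the greater depth of the inhibitor library. The medians over all genes were 0.07, -0.01, -0.00 and -0.05. Dusp6, the cytoplasmic ERK phosphatase, differed most before stimulation: 1.10, 0.528, 0.354 and 0.106 RPKM with DMSO against 0.0284, 0.0858, 0.0412 and 0.0183 RPKM with the inhibitor. At 0 min this is 112 reads against 4 and a difference of -1.59. It was the fifth lowest gene at 0 min, after Mir25 (-2.16), Rgs1 (-1.82), Mir362 (-1.67) and Snord70 (-1.67). Rgs1 encodes a regulator of G protein signalling and had 1.92 against 0.184 RPKM at 0 min. The highest at 0 min were the short RNA genes Snord69 (1.73), Snord1b (1.69), Mir5132 (1.63), Mir1942 (1.44) and Mir3087 (1.36), on 1 to 25 reads each. Spred2, an inhibitor of the Ras and ERK pathway, had 0.420 against 0.0244 RPKM at 0 min, and Dusp4, another ERK phosphatase, 1.67 against 0.330 RPKM at 60 min. Neither passed at 2 consecutive times. In the phosphatases outside this list 0 of 5 passed, near the shares of all genes (0.528% lower and 0.381% higher). Among them Dusp1, which acts mainly on p38 and JNK, had 77.5 against 28.4 RPKM at 30 min.

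Plaur and Plau, of the urokinase system, passed at 30 and 60 min. Plaur (chromosome 7, 25247502 to 25260987) had 0.751, 2.29, 13.5 and 10.03 RPKM with DMSO and 0.375, 1.59, 4.52 and 1.44 RPKM with the inhibitor. Its differences were -0.52, -0.42, -1.48 and -2.44, on 3612 reads against 500 at 60 min. Plau had 0.972, 1.97, 9.03 and 1.77 RPKM with DMSO and 0.198, 1.06, 4.08 and 0.486 RPKM with the inhibitor. Plau was already 2-fold lower at 0 min (-1.08) and, like Plaur, does not pass relative to its 0 min difference. The list of growth factors and matrix-remodelling genes had 2 of 9 measurable members lower at 2 consecutive times, those 2. At 60 min 4 of the 9 were 2-fold lower, where 3.43% of all genes were. Among these, Pdgfb was at 7.12 against 1.88 RPKM and Tgfb1 at 2.84 against 1.01 RPKM. Edn1, which encodes endothelin 1, was higher at that time (0.201 against 1.24 RPKM).

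Vim, which encodes the intermediate filament protein vimentin, had 2.50, 4.05, 10.8 and 9.24 RPKM with DMSO and 1.07, 1.90, 3.03 and 4.04 RPKM with the inhibitor. It was nearly 2-fold lower at 0 min (-0.94) and lower at every later time. Tubb6, a beta tubulin, had 0.555, 1.25, 2.81 and 2.08 RPKM with DMSO and 0.531, 0.939, 0.645 and 0.716 RPKM with the inhibitor, with a 0 min difference of -0.03. Vim and Tubb6 are not in the list of cytoskeletal genes controlled by serum response factor. Of its 5 measurable genes 0 were lower and 0 higher at 2 consecutive times, near the shares of all genes (0.528% and 0.381%). Map2k3, the kinase that activates p38, had 1.69, 3.66, 7.14 and 4.52 RPKM with DMSO and 1.94, 2.85, 2.21 and 1.13 RPKM with the inhibitor. Its difference was -0.31 at 15 min and -1.62 at 60 min, and it was the 1 lower gene among 12 measurable MAP kinase pathway components, of which 0 were higher by the rule. Map3k8, which encodes Tpl2, had 3.90 against 10.7 RPKM at 60 min and 2.97 against 2.99 RPKM at 30 min.

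The 6 other lower genes and 3 of the higher ones are microRNA genes with spans of 65 to 107 bases. The lower ones are Mir1938, Mir1898, Mir425, Mir24-2, Mirlet7d and Mir532. Mir1938 lies within Ifrd1, and reads over it cannot be told from those of its host: Ifrd1 itself had 80.5 against 38.5 RPKM at 30 min. Outside Mir1938, the lower microRNA genes rest on 1 to 48 reads in each library, and the higher ones, Mir5132, Mir99a and Mir26b, on 1 to 17. Mir26b lies within Ctdsp1, and Mir24-2 overlaps Mir3074-2. Without spans of 300 bases or less, 12 lower and 10 higher genes remain.

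Among the higher genes was Ifnb1, which encodes interferon beta (chromosome 4, 88167929 to 88168698). Its RNA with DMSO was 0.0541, 0.0597, 1.84 and 2.38 RPKM and with the inhibitor 0.0393, 0.0527, 4.44 and 6.88 RPKM. Both arms held no more than 1 read at 0 and 15 min, and the inhibitor library was higher at 30 min (78 reads against 31) and 60 min (136 against 49). The differences were 1.08 and 1.36. The RPKM ratio at 60 min was 2.89 (95% exact binomial interval 2.07 to 4.09, counting error only). The gene's span is 770 bases, and its values rest on fewer reads than those of the other higher genes over 300 bases. The exception is Calhm6 with DMSO at 30 min, with 26 reads against 31 for Ifnb1.

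Interferon-stimulated genes stood above DMSO chiefly at 60 min. Ifit1, an RNA-binding antiviral protein, had 0.242, 0.413, 1.25 and 8.83 RPKM with DMSO and 0.402, 0.245, 3.46 and 27.4 RPKM with the inhibitor. Gbp5, a guanylate-binding GTPase of cell-autonomous defence, had 0.130, 0.741, 7.71 and 20.5 RPKM with DMSO and 0.173, 2.08, 20.2 and 60.1 RPKM with the inhibitor. Gbp5 was higher already at 15 min (1.06) and Ifit1 from 30 min on (1.18). Whether interferon beta bears on either was not tested. Of 11 measurable members of the list, 2 passed at 2 consecutive times, and at 60 min 9 of the 11 were 2-fold higher and 0 lower, where 2.93% of all genes were higher. The list's median went from 0.09 at 0 min through -0.11 and 0.31 to 1.40 at 60 min. Rsad2, which encodes viperin, had 20.2 against 84.0 RPKM at 60 min, Cmpk2 7.57 against 32.3 RPKM and Mx1 6.93 against 26.0 RPKM. Isg15 (5.93 against 9.58 RPKM) and Stat2 (4.20 against 8.22 RPKM) were the 2 short of 2-fold.

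Calhm6, a membrane channel gene of activated macrophages, had 0.284, 0.554, 0.622 and 1.14 RPKM with DMSO and 0.365, 1.13, 2.87 and 5.17 RPKM with the inhibitor. Its differences of 1.59 and 1.79 at 30 and 60 min made it the most sustained of the higher genes. Ube2l6, the conjugating enzyme for ISG15, had 0.298, 0.185, 0.653 and 1.06 RPKM with DMSO and 0.382, 0.472, 2.38 and 2.94 RPKM with the inhibitor. Each of these lay under 6 RPKM in every library and had its inhibitor value above that of DMSO at all 4 times.

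C3, the central complement component (chromosome 17, 57343390 to 57367559), had 0.191, 0.184, 1.08 and 9.75 RPKM with DMSO and 0.254, 0.570, 4.82 and 22.5 RPKM with the inhibitor. Its differences were 0.13, 0.64, 1.75 and 1.17, so the arms were furthest apart at 30 min. Fchsd2, which encodes an adaptor of membrane trafficking and has a span of 175631 bases, had 0.885, 1.02, 1.56 and 4.96 RPKM with DMSO and 1.06, 1.11, 4.66 and 17.7 RPKM with the inhibitor. Mxd1, a MAX partner that opposes MYC, had 0.918, 2.55, 3.07 and 1.14 RPKM against 1.38, 5.38, 6.98 and 3.19 RPKM. Hnrnpll, a splicing regulator, had 2.91, 4.45, 4.39 and 2.84 RPKM against 3.35, 4.58, 9.50 and 7.13 RPKM. At 0 min the difference was 0.41 in Mxd1, on 487 reads against 1009, and 0.17 in both Fchsd2 and Hnrnpll. Ppp1r15a encodes GADD34, which directs dephosphorylation of eIF2alpha, and had 0.883, 35.5, 23.7 and 4.07 RPKM against 0.921, 32.5, 49.8 and 8.65 RPKM. Ppp1r15a was level at 15 min, where its DMSO value peaked, and its inhibitor value peaked at 30 min.

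**Figure D3:**
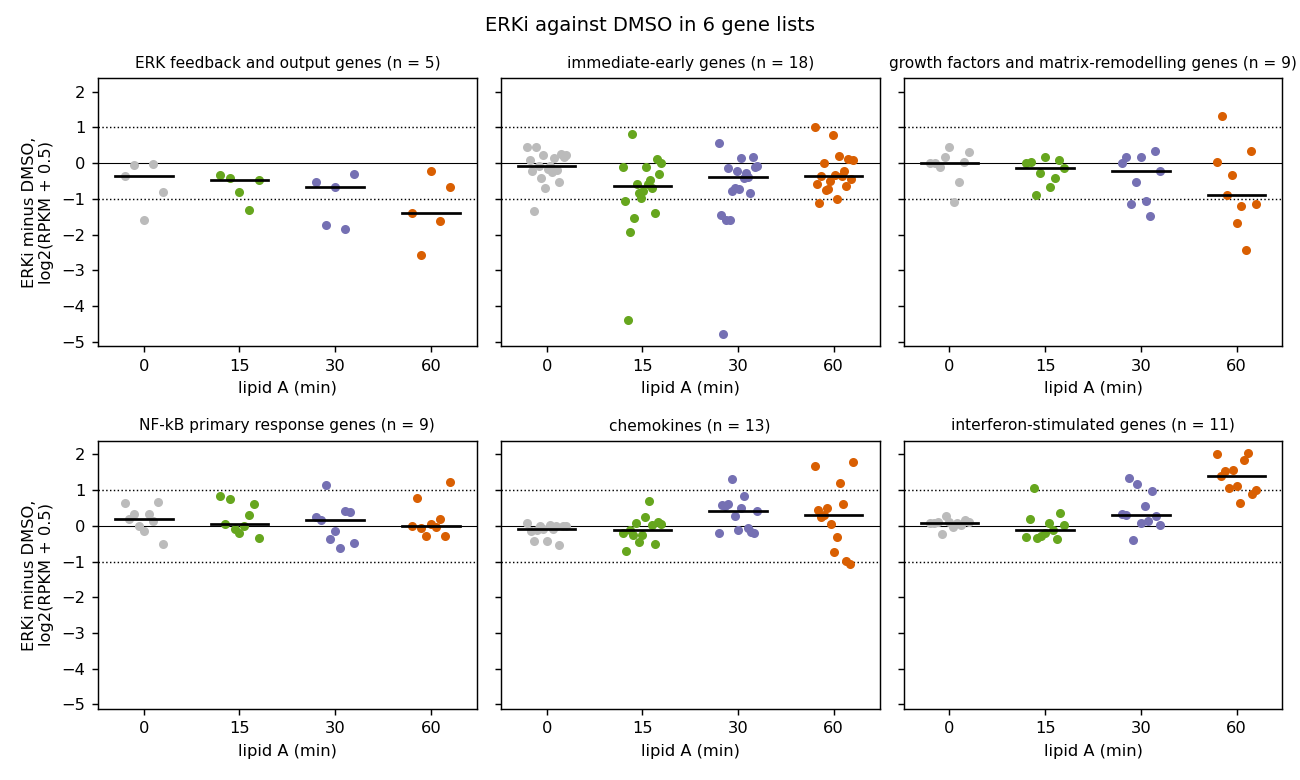
Difference between inhibitor and DMSO on the log2(RPKM + 0.5) scale (y axis) by minutes of lipid A (x axis) for 6 gene lists, 1 point per measurable gene and the median as a bar; dotted lines mark 2-fold. The bar of the interferon-stimulated genes is at 1.40 at 60 min and that of the ERK feedback genes at -1.39, while that of the NF-kB primary response genes stays between 0.01 and 0.20.

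Other inflammatory genes gave both directions or little difference. The NF-kB primary response list had 9 measurable genes, 0 of them lower and 0 higher at 2 consecutive times. Over all genes 0.528% were lower and 0.381% higher, so 0 here, or in the 13 chemokines below, is near that share. Icam1 was 2-fold higher at 30 min only (26.5 against 59.0 RPKM) and Tnip3 at 60 min only (21.6 against 50.8 RPKM). Nfkbia, which encodes the inhibitor IkBa, had 6.54, 107, 121 and 94.4 RPKM with DMSO and 5.90, 93.4, 110 and 97.3 RPKM with the inhibitor, so that its course was alike in both arms. Of 13 chemokines 0 passed the rule, and at 60 min Cxcl9, Cxcl10 and Ccl12 were 2-fold higher and Cxcl3 2-fold lower. Cxcl10, a chemokine induced by interferon, had 31.0 against 71.4 RPKM. Of 8 cytokines Ifnb1 was the 1 that passed, and at 60 min Il1a (15.9 against 4.18 RPKM) and Il10 (5.52 against 2.20 RPKM) were 2-fold lower. Il10 lay in the other direction earlier, at 2.75 against 4.20 RPKM at 15 min and 2.17 against 3.71 RPKM at 30 min (differences of 0.53 and 0.66). Of 11 immunoregulatory and effector genes C3 was the 1 that passed, and Kdm6b, a histone demethylase gene, had 9.92 against 2.41 RPKM at 60 min.

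Whether the members respond to lipid A was read from 12 wild-type chromatin libraries of the Nfkbiz and Bcl3 series, which the choice of members did not use. In these, 138 genes were induced at 0.5 or 1 h (limma, adjusted p under 0.05, at least 5-fold, mean of at least 3 RPKM), and 134 of them were measurable here. Of the 134, 6 (4.48%, beside 0.528% of all genes) were lower with the inhibitor, namely Egr1, Dusp5, Ier2, Plaur, Mir1938 and Btg2. Another 6 (4.48%, beside 0.381%) were higher: Gbp5, Fchsd2, Ifit1, C3, Ifnb1 and Ppp1r15a. Of the 97 measurable genes induced at 1 h, 13 were 2-fold lower and 13 higher at 60 min, where 3.43% and 2.93% of all genes were. Their median was -0.03, so induced genes lay in both directions, each more often than all genes did. Setting aside the short spans, 11 of 12 lower members were at least 2-fold up at 0.5 h and 7 at 1 h (limma, adjusted p under 0.05), where 9.75% and 10.7% of all measurable genes over 300 bases in that fit were. Of the 9 higher members in that fit 8 were up at 0.5 h and 7 at 1 h. The rule for members took differences at stimulated times, which favours genes that lipid A raises. Members were therefore more likely to be up here by the rule itself, and these counts lend them no support. The median lipid A change of the lower members went from 2.33 at 0.5 h to 1.23 at 1 h, and that of the higher members from 1.91 to 2.76.

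In the TNFa chromatin series, with 1 wild-type library per time, 7 of the 12 lower and 4 of the 10 higher members over 300 bases were at least 2-fold above 0 h at 0.5 h, against 8.86% of all measurable genes over 300 bases. Egr1 (2.43), Dusp5 (2.14) and Plaur (1.93) were among them on the log2 scale. Ifnb1 (0.23) and Ifit1 (-0.10) were not, although C3 (2.26) and Gbp5 (2.32) were. At 1 h of TNFa 0 of the 12 lower and 3 of the 10 higher members were 2-fold up, against 2.09%. The choice of members at stimulated times of lipid A bears on these counts as well.

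The chromatin libraries of Nfkb1-/- macrophages are replicated, but they compare genotypes and do not test the inhibitor. Nfkb1 encodes p105, the precursor of p50, and p105 is also known to hold and stabilise Tpl2, upstream of MEK and ERK. A knockout of Nfkb1 bears on both p50 and p105, and their parts cannot be told apart here. The series has 3 libraries per genotype and time, knockout against their own wild type, fitted with limma over 4523 genes with Benjamini-Hochberg adjustment. The Nfkb1 transcript itself did not mark the knockouts: its difference was -0.25 ± 0.49 (SE) at 0.5 h and -0.13 ± 0.49 at 1 h, adjusted p = 1.0 at both, so the genotype is that of the labels. At 0.5 or 1 h, 29 genes (0.641%) were lower and 2 (0.0442%) higher, and with the replicate number as a term 61 (1.35%) and 11 (0.243%).

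Egr1 was the 1 of the 18 lower members that was also lower in Nfkb1-/-. Its values at 0.5 h were 14.0, 11.8 and 10.2 RPKM in wild type and 0.981, 1.11 and 1.08 RPKM in Nfkb1-/-. The groups did not overlap, and the difference was -2.99 ± 0.16 (SE; limma adjusted p = 1.06e-12), beside -4.78 with the inhibitor at 30 min. With the replicate number as a term, Fos at 0.5 h and Dusp5 at 1 h also passed, giving 3 of 18. Fos was 4.41 ± 0.755 RPKM (SD, n = 3) in wild type and 1.91 ± 0.401 RPKM in Nfkb1-/- (difference -1.03; limma adjusted p = 0.28 without the term and 0.0058 with it). Dusp5 at 1 h was 4.08, 6.18 and 10.9 RPKM in wild type and 1.16, 2.09 and 4.09 RPKM in Nfkb1-/-, and each knockout library was below the wild-type library of the same number (difference -1.38; limma adjusted p = 0.138 and 0.00086). Over the 18 lower members the median Nfkb1-/- difference was -0.43 at 0.5 h, with 15 of 18 below 0, and -0.30 at 1 h, with 14 of 18 below 0. The median of all genes was 0.03 and -0.01.

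Of the 13 higher members 0 passed as higher in Nfkb1-/- (limma), and 1, Ifnb1, was at least 2-fold higher at an unadjusted p under 0.05. Ifnb1 at 1 h was 9.35, 2.45 and 16.8 RPKM in wild type and 28.9, 13.7 and 63.1 RPKM in Nfkb1-/-. Each knockout library exceeded the wild-type library of the same number, the groups overlapped, and the difference was 1.91 ± 0.60 (SE; limma adjusted p = 0.297, and 0.072 with the replicate number as a term). C3 went the other way: at 1 h it was 10.46, 15.5 and 5.09 RPKM in wild type and 1.83, 2.67 and 1.36 RPKM in Nfkb1-/-. There it fell by 2.05 on the log2 scale (limma adjusted p = 0.0021), whereas its value with the ERK inhibitor was above that of DMSO. The call of C3 ends when replicate 2 of wild type is left out and when each time is fitted alone. The median of Nfkb1-/- differences over the 13 was 0.45 at 0.5 h and 0.50 at 1 h.

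Read from the knockout's side, the 3 genes lower in Nfkb1-/- at 0.5 h were Egr1, Kdm6b and Lfng, and Egr1 was the 1 that was 2-fold lower with the inhibitor at 30 min. Kdm6b was 13.7 ± 2.87 RPKM (SD, n = 3) in wild type and 4.27 ± 0.614 RPKM in Nfkb1-/- at 0.5 h. With DMSO it was 0.382, 4.01, 13.5 and 9.92 RPKM and with the inhibitor 0.454, 3.71, 7.49 and 2.41 RPKM, so the inhibitor arm was lower from 30 min on. Lfng, which encodes a glycosyltransferase that acts on Notch, had inhibitor differences of -0.77 at 15 min and -0.87 at 30 min. Of the 27 genes lower at 1 h, 26 were measurable here, and 7 (Cd81, Fam107b, Kdm6b, Micall2, Oaf, Por and Zbtb7a) were 2-fold lower with the inhibitor at 60 min, where 3.43% of all genes were. Among the 97 measurable genes induced at 1 h in wild type, 13 were 2-fold lower at that time. The median inhibitor difference of the 26 was -0.59. Gadd45b (-0.01), Fcer1g (0.14) and Adamts4 (0.04), all lower in Nfkb1-/-, were level with the inhibitor at 60 min. These numbers rest on single replicates, each of which is 5 libraries, 1 per time. The 3 genes at 0.5 h become 1, Egr1, without replicate 2 of wild type, without replicate 2 or 3 of Nfkb1-/-, and with each time fitted alone. The 27 at 1 h become 17 without replicate 2 and 16 without replicate 3 of wild type. With 1 h fitted alone they become 0 (limma), where 58 genes were at least 2-fold lower at an unadjusted p under 0.05. Counting both times, the 8 genes that were lower in Nfkb1-/- and 2-fold lower with the inhibitor become 14 when replicate 1 of wild type is left out, and 5 when replicate 2 of either genotype is.

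**Figure D4:**
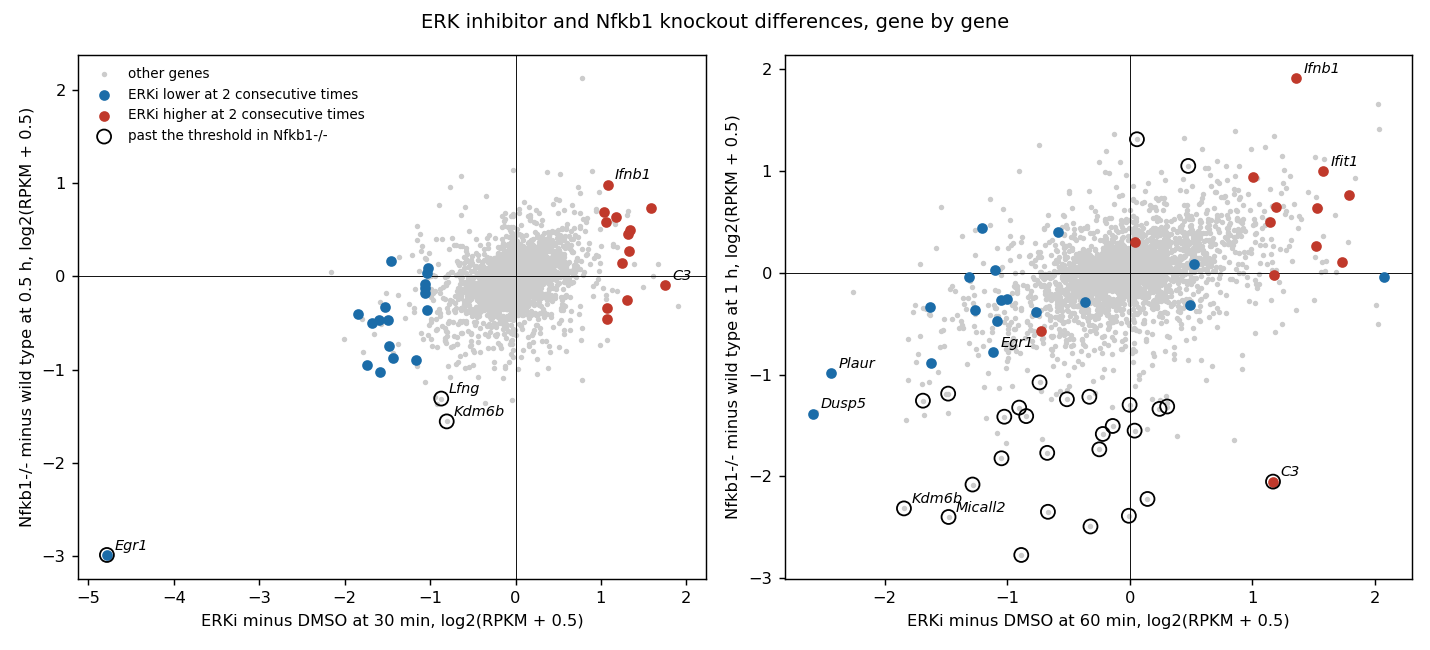
Each point is a gene: x axis, inhibitor minus DMSO at 30 min (left) or 60 min (right); y axis, mean of Nfkb1-/- minus wild type (3 libraries each) at 0.5 h (left) or 1 h (right), both on the log2(RPKM + 0.5) scale. Egr1 is at -4.78 and -2.99 in the left panel, and C3 is at 1.17 and -2.05 in the right one.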

How the data were processed

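Chromatin-associated RNA was sequenced with a stranded TruSeq kit, per the labels' protocols. The authors deposited 1 RPKM value per gene and library for 15196 genes; HISAT2, SAMtools and the mm9 build are named per the submitters' processing notes, and versions and the counting rule, strand included, are not given in the sources used here, so reads of a gene and an antisense partner cannot be told apart. The deposited RPKM values step in whole reads over the whole gene span: of the values worth up to 30 reads, 97.5% to 97.7% came out whole to within 0.02, which gave depth and reads. Genes with 0 and with 1 read share a value. The span includes introns, and 1778 genes overlap another.

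Differences are of log2(RPKM + 0.5), which understates the change of low genes, in genes with at least 1 RPKM in 1 of the 8 libraries. Python 3.11.15 (pandas 2.3.3, numpy 2.4.6, scipy 1.17.1) and limma 3.58.1 in R 4.3.3 (lmFit, eBayes with trend) were used. The Nfkb1 fit took all 30 libraries and genes with 1 RPKM in 3 of them, and the induction fit 12 libraries with the series as a term and genes with 1 RPKM in 4. In data simulated from the Nfkb1 series at 0.5 h (4523 genes), the fit called 50% of changes of 1.5 and 92% of changes of 3.0 (log2), with 8 false calls. The simulated libraries varied independently of each other, unlike the real ones, and the changed genes were drawn from those with higher levels. These rates therefore need not hold for the real series. The labels do not say that libraries are separate cultures or mice, so p-values measure the spread between libraries. Same-numbered Nfkb1 libraries deviated together (correlations 0.61 to 0.918 over genes), so the replicate number was also fitted as a term.

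The members and gene lists were chosen with earlier results of these data known, and no list count is independent evidence of its direction. Genes named are the members, list members by the same rule or by level, the genes past the threshold in Nfkb1-/- at 0.5 h, and the 5 lowest and 5 highest at 0 min; others, such as those level with the inhibitor, were chosen after their values were seen. Alternatives were other pseudocounts, filters, thresholds and centring, leaving out replicates, and, chosen after seeing the data, leaving out spans of 300 bases or less.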

Additional observations from a re-analysis of the deposited data

Results flagged for a closer look

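Mir532, a microRNA gene with a span of 96 bases, differed in opposite directions at 15 min (-1.39) and at 60 min (2.07). It rests on 1 to 8 reads per library, and the difference between the times was not tested.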

How the results depend on the processing

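The pseudocount and the fold threshold set how many genes pass. With a pseudocount of 0.1 the lower and higher members number 55 and 32, with 1 they number 10 and 5, at 1.5-fold 100 and 65, at 3-fold 4 and 1, over all 3 stimulated times 2 and 1, and relative to the 0 min difference 39 and 29, of which 9 and 6 are shared with the 18 and 13. Filters of 3 RPKM or none, centring, and leaving out overlapping genes or short spans kept both numbers within 1.5 times. With a pseudocount of 0.1 the lower genes at 0, 15, 30 and 60 min number 57, 91, 111 and 209 and the higher ones at 0, 15 and 30 min 28, 50 and 62. With 1 the lower ones at 0, 30 and 60 min number 15, 31 and 67 and the higher ones at the 4 times 10, 15, 18 and 54. With a filter of 3 RPKM 75 are lower at 60 min. With the replicate number as a block, 3 lower members were lower in Nfkb1-/- in place of 1, and 22 genes lower in Nfkb1-/- were 2-fold lower with the inhibitor in place of 8; with each time fitted alone that number is 1, and leaving out 1 replicate of a genotype, at all times, gives 5 to 14. Of the induced genes 11 were lower with a pseudocount of 0.1 and 13 at 2-fold induction in place of 6, and 3 were higher with a pseudocount of 1 in place of 6. The cause of these moves was not tested. For 40 named genes, 480 alternative differences gave 453 that moved by less than the spread between replicates, 27 that moved by more and 0 that changed sign. The block changed no other call of a member.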

Other observations

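Some genes were past 2-fold at 60 min and short of it at 30 min. These genes were chosen after their values were seen and have 1 library per condition. Fam129b, a cytoplasmic adaptor gene, had 1.51 RPKM with DMSO and 0.508 RPKM with the inhibitor at 30 min, a difference of -0.99 just short of 2-fold, and 17.1 against 2.49 RPKM at 60 min. Lpl, which encodes lipoprotein lipase, had 6.87 against 1.73 RPKM at 60 min, with a difference of -0.20 at 30 min. Tnfrsf11a, which encodes RANK, had 9.41 against 2.90 RPKM at 60 min and a 30 min difference of -0.49. In the other direction, Cd274, which encodes PD-L1, had 2.12 RPKM with DMSO and 10.02 RPKM with the inhibitor at 60 min, after a difference of 0.88 at 30 min. Nampt, an enzyme of NAD synthesis, had 5.09 against 15.4 RPKM at 60 min and a difference of 0.71 at 30 min. Itpkb, an inositol trisphosphate kinase gene, was again lower with the inhibitor at 60 min, with 22.1 RPKM with DMSO against 7.38 RPKM. Its difference at 30 min was -0.06.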
